A study of Homo sapiens with 15 samples.

Results

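The 10 noncoding host genes of small nucleolar RNAs (snoRNAs) described here were followed across 15 RNA sequencing libraries of the K562 line, which was established from a patient with chronic myeloid leukaemia. They are GAS5, SNHG1, SNHG5, SNHG6, SNHG8, SNHG12, SNHG15, SNHG16, ZFAS1 and EPB41L4A-AS1. The genes were chosen by name, as spliced noncoding transcripts that carry snoRNAs in their introns, and they are 10 of the 57500 genes in the deposited count tables. All 10 passed the filter on low counts and so belong to the 15517 genes tested.

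There were 5 groups of 3 libraries, each taken at 1 h. In 2 groups, JQ1-FCPF with sgRNA and its counterpart without sgRNA, cells carried transfected Cas9FCPF, with or without a guide RNA, and received 1 µM JQ1-FCPF. In JQ1 with sgRNA and JQ1 without sgRNA the transfected cells received 1 µM JQ1, an inhibitor of BET proteins that occupies their bromodomains. JQ1-FCPF is the form of that compound whose name carries the FCPF tag of the Cas9 protein. The control was labelled wild type and not treated, whereas the series text names DMSO. No source states that control cells were transfected, so transfection, Cas9FCPF and compound cannot be told apart in any comparison with the control. The series title names dCas9, the form without cutting activity. The labels name no target for the sgRNA, and background knowledge of the study gives MYC. Whether replicates came from separate cultures is not stated. The p-values therefore measure the spread between these libraries alone, and that spread may be technical.

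snoRNAs guide the chemical modification of ribosomal and other RNAs. Box C/D snoRNAs guide methylation of the ribose, and box H/ACA snoRNAs guide the conversion of uridine to pseudouridine. In vertebrates most lie in introns, are trimmed out of the host after splicing, and leave an exonic RNA that in these genes encodes no known large protein. Many such host transcripts start with a run of pyrimidines (the 5'TOP sequence also found in ribosomal protein mRNAs), enter ribosomes, and are removed by nonsense-mediated decay, so their levels can change quickly when transcription or translation changes. GAS5 was named for its accumulation in growth-arrested cells, and GAS5 and SNHG15 are known as short-lived RNAs.

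Promoter sequences from RefSeq (build GRCh38.p14) were held for 8 of the 10 genes. The windows of SNHG12, SNHG5 and ZFAS1 are shown because they share 2 features, and that of SNHG1 because its level moved most between libraries while its window holds neither. Each runs from 50 bases before the RefSeq start to 50 after it, 5′ to 3′ on the strand of the gene. Capitals mark the letters TATATAAG and a run that begins with C within 5 bases of the start and goes on for at least 4 pyrimidines.
SNHG12 (chr1:28581824-28581923, minus strand): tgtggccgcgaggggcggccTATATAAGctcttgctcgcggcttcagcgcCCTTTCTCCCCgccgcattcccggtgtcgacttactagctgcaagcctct
SNHG5 (chr6:85678684-85678783, minus strand): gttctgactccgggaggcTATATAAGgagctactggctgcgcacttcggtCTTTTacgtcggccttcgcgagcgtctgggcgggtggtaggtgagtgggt
ZFAS1 (chr20:49278592-49278691, plus strand): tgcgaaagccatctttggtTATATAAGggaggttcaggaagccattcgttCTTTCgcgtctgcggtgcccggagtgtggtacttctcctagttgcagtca
SNHG1 (chr11:62855836-62855935, minus strand): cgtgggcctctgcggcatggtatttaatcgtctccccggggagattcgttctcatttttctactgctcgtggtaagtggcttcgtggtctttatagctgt

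TATATAAG, searched on both strands of the 300-base promoters, was present in these 3 of the 8 genes and in 0.644% of all 35097 promoters. These letters were picked after the sequences had been seen. The pyrimidine run, searched on the gene's strand only, was found in 5 of the 8 (SNHG5, SNHG8, SNHG12, SNHG16 and ZFAS1), in 21.1% of all promoters and in 74.0% of the 77 promoters of ribosomal protein genes. The search covered only the RefSeq start. That start lay 1110 bases (SNHG12), 464 (ZFAS1) and 163 (GAS5) from the gene's start in the counted annotation, and 0 to 53 bases for the others. A run at another start would be missed. CACGTG, the letters of an E-box, was in 0 of the 8 and in 7.25% of all promoters, which says only that these letters are not in these windows.

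Of the snoRNAs inside these hosts, 4 are shown because their hosts carry the differences described here or because they were counted in the libraries. Their sequences come from the transcripts of GENCODE release 29 (GRCh38), and capitals mark the C box (TGATGA), the D box (CTGA) or the ACA box where those letters were found near the ends.
SNORA9, box H/ACA, inside SNHG15 (chr7:44985378-44985510, minus strand): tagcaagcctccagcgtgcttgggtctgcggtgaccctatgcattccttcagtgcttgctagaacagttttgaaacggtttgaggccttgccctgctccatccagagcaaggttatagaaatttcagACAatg
SNORD99, box C/D, inside SNHG12 (chr1:28578749-28578822, minus strand): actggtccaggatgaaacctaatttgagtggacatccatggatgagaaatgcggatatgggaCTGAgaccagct
SNORD12C, box C/D, inside ZFAS1 (chr20:49278940-49279028, plus strand): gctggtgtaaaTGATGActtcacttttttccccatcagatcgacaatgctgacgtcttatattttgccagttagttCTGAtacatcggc
SNORD12B, box C/D, inside ZFAS1 (chr20:49280319-49280409, plus strand): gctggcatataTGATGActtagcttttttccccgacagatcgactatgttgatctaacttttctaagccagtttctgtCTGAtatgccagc

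Library totals ran from 12625669 to 17544518 counts. The labels call the cells lymphoblasts, but all 10 erythroid markers of K562 exceeded a mean of 1 CPM (a library-size-scaled count, with TMM factors) with a sum of 1644 to 2401 CPM per library, while 3 of 7 lymphoid markers did, PTPRC and CD3D among them, and MS4A1 and CD2 were near 0. Among 7 epithelial and fibroblast markers, EPCAM and COL1A1 exceeded 1 CPM. MYC averaged 59.5 ± 1.95 CPM in JQ1-FCPF with sgRNA and 168 ± 30.7 CPM in JQ1-FCPF without sgRNA (SD, n = 3 each). A pair of libraries stood apart. JQ1-FCPF with sgRNA replicate 2 lay at 32.2 on the first principal component (29% of the variance), on the side of the JQ1 libraries, whereas replicates 1 and 3 of its group lay at -16.7 and -14.8. Those 2 replicates were in turn the lowest of all libraries on the second component, at -39.98 and -27.2, with the other 13 between -16.4 and 14.97. JQ1 with sgRNA replicate 1 had 7.46% of its counts in mitochondrial genes, against 2.31% to 5.98% in the other libraries. Some results that rest on JQ1-FCPF with sgRNA replicate 2 or JQ1 with sgRNA replicate 1 are given with and without them. The others are given with these libraries only.

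For 7 of the 10 host genes the counted exonic blocks cover most of the span, and for ZFAS1, SNHG5 and SNHG6 they cover 12.8%, 15.7% and 26.4%. SNHG15 (ENSG00000232956, chr7:44983023-44986961, GRCh38) was counted over exonic blocks that cover 92.6% of its span, SNHG1 (ENSG00000255717, chr11:62851988-62855914) over 95.6%, and SNHG12 (ENSG00000197989, chr1:28578538-28582983) over 76.0%. ZFAS1 (ENSG00000177410) lies at chr20:49278178-49295738. Where transcripts that keep introns are part of these blocks, spliced and unspliced RNA cannot be told apart in the counts. GENCODE lists between 4 transcripts (EPB41L4A-AS1) and 29 (GAS5) for a member. The use of strand in counting is not given in the sources used here, and exonic bases are shared with a gene on the other strand by EPB41L4A-AS1 (1659 bases with EPB41L4A), SNHG6 (365 with MCMDC2), ZFAS1 (249 with ZNFX1), GAS5 (42 with GAS5-AS1) and SNHG12 (8 with TRNAU1AP). Counts for these members are uncertain to that extent, although MCMDC2, GAS5-AS1 and EPB41L4A had mean counts of 5.8 to 16.5 per library, against 381 for ZNFX1 and 471 for TRNAU1AP.

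The members took 0.207% ± 0.0337 of all counts in JQ1-FCPF with sgRNA, 0.178% ± 0.0128 in JQ1-FCPF without sgRNA, 0.180% ± 0.0112 in JQ1 with sgRNA, 0.187% ± 0.00909 in JQ1 without sgRNA and 0.163% ± 0.00981 in the control (SD, n = 3 each). As CPM per kilobase of exonic length, averaged over the 15 libraries, SNHG5 was highest at 215, followed by SNHG6 at 120, SNHG8 at 103, GAS5 at 84.9, SNHG1 at 76.1, ZFAS1 at 58.0, SNHG16 at 27.8, SNHG12 at 16.9, SNHG15 at 10.4 and EPB41L4A-AS1 at 7.47. That length takes in all counted exonic blocks of a gene, so the order depends on the annotation and is not an order of expression. Without division by length SNHG8 averaged 95.1 CPM, below GAS5 at 308 CPM and SNHG1 at 286 CPM. SNHG1 varied most, by 3.99-fold in CPM between its highest and lowest library, then SNHG12 (2.70-fold) and SNHG15 (2.62-fold). For the other 7 the same ratio lay between 1.37 (SNHG8) and 1.72 (SNHG6).

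**Figure D1:**
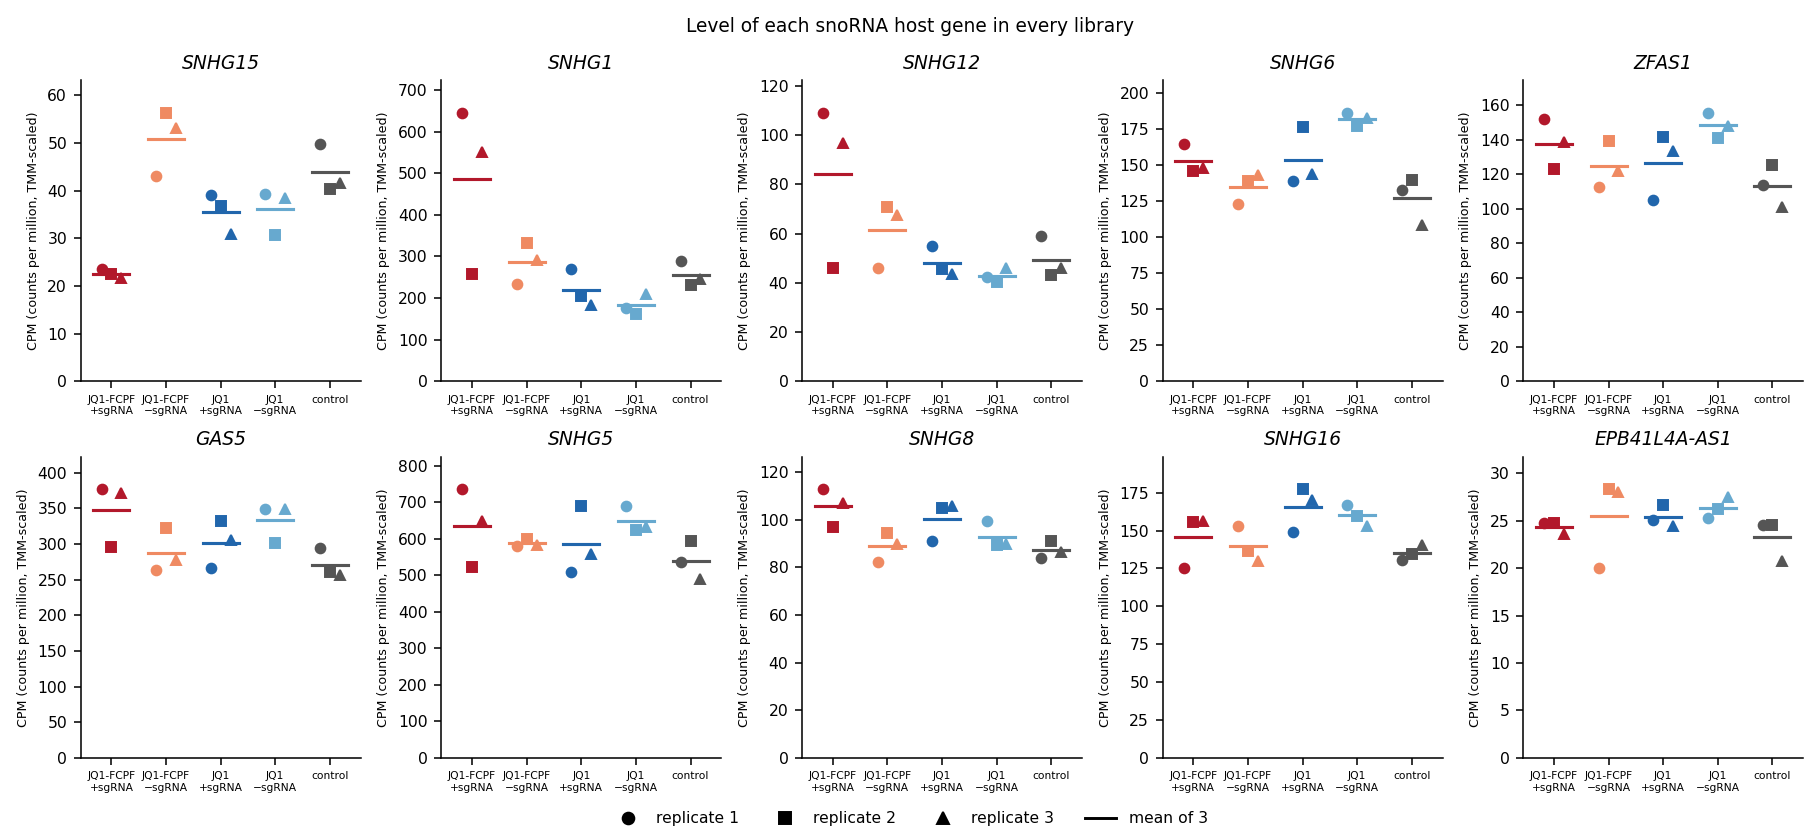
Level of each of the 10 host genes in CPM (vertical axis from 0) in the 15 libraries, by group, with a symbol for each replicate and a line at the mean of 3. SNHG15 has its 3 lowest libraries in JQ1-FCPF with sgRNA (21.6 to 23.5 CPM), and in SNHG1 and SNHG12 replicate 2 of that group (258 and 46.0 CPM) lies far below replicates 1 and 3.

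The sgRNA comparison under JQ1-FCPF asks what changed when the compound's Cas9 partner also had a guide. SNHG15 fell and SNHG1 rose, while the other 8 members were not called. With sgRNA SNHG15 stood at 23.5, 22.6 and 21.6 CPM, against 43.0, 56.4 and 53.2 CPM without sgRNA. The 3 libraries with sgRNA lay below all 12 other libraries of the study, the lowest of which held 30.7 CPM. SNHG15 was 2.25-fold lower with sgRNA (log2 fold change -1.17 ± 0.13 SE, 95% interval -1.44 to -0.90; edgeR's quasi-likelihood test, p adjusted by Benjamini-Hochberg = 4.93e-06). It was called in all 21 alternatives, with adjusted p between 5.27e-17 and 0.000513, and without JQ1-FCPF with sgRNA replicate 2 it was again 2.25-fold lower.

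SNHG1, the host of a row of box C/D snoRNAs and an early example of a gene whose introns hold the known products, had 646, 258 and 552 CPM with sgRNA, against 235, 332 and 292 CPM without sgRNA. Replicates 1 and 3 with sgRNA exceeded every other library of the study, and replicate 2 lay within the range without sgRNA. The fitted difference was 1.698-fold higher (log2 fold change 0.76 ± 0.22 SE; edgeR adjusted p = 0.0408). It was called in 8 of 21 alternatives, with adjusted p from 1.17e-08 to 0.186. Without replicate 2 of JQ1-FCPF with sgRNA it was 2.10-fold higher (adjusted p = 0.000104). The call was lost on leaving out replicate 1 (0.186) or 3 (0.105) of that group, any replicate of JQ1-FCPF without sgRNA (0.0648 to 0.135) or of JQ1 without sgRNA (0.0507 to 0.0531), or control replicate 2 (0.0501) or 3 (0.061).

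Beside these 2 of 10 members called, 6.25% of all genes were called in this comparison, 2.06% higher and 4.2% lower. SNHG12 had 109, 46.0 and 96.8 CPM with sgRNA, against 46.1, 70.6 and 67.5 CPM without sgRNA. As in SNHG1, replicates 1 and 3 were above every other library and replicate 2 was not. It was not called (log2 fold change 0.46, 95% interval 0.02 to 0.89, edgeR adjusted p = 0.210), and without that replicate the difference was 1.68-fold (0.00288, with 0.000125 to 0.583 over all alternatives). GAS5 held 377, 296 and 371 CPM with sgRNA, against 264, 323 and 278 CPM without sgRNA, with overlapping groups (log2 fold change 0.27, adjusted p = 0.175, and 0.0497 without replicate 2). SNHG8, at 113, 97.2 and 107 CPM with sgRNA, lay above its 82.4, 94.5 and 90.0 CPM without sgRNA by 0.25 on the log2 scale (adjusted p = 0.123). The other 5 (SNHG5, SNHG6, SNHG16, ZFAS1 and EPB41L4A-AS1) had log2 fold changes of -0.06 to 0.18. In 3 of 10 members, SNHG15, SNHG6 and SNHG8, the groups did not overlap, as was so for 22.6% of all genes. The median log2 fold change of the members was 0.16, beside 0.01 over all genes tested.

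**Figure D2:**
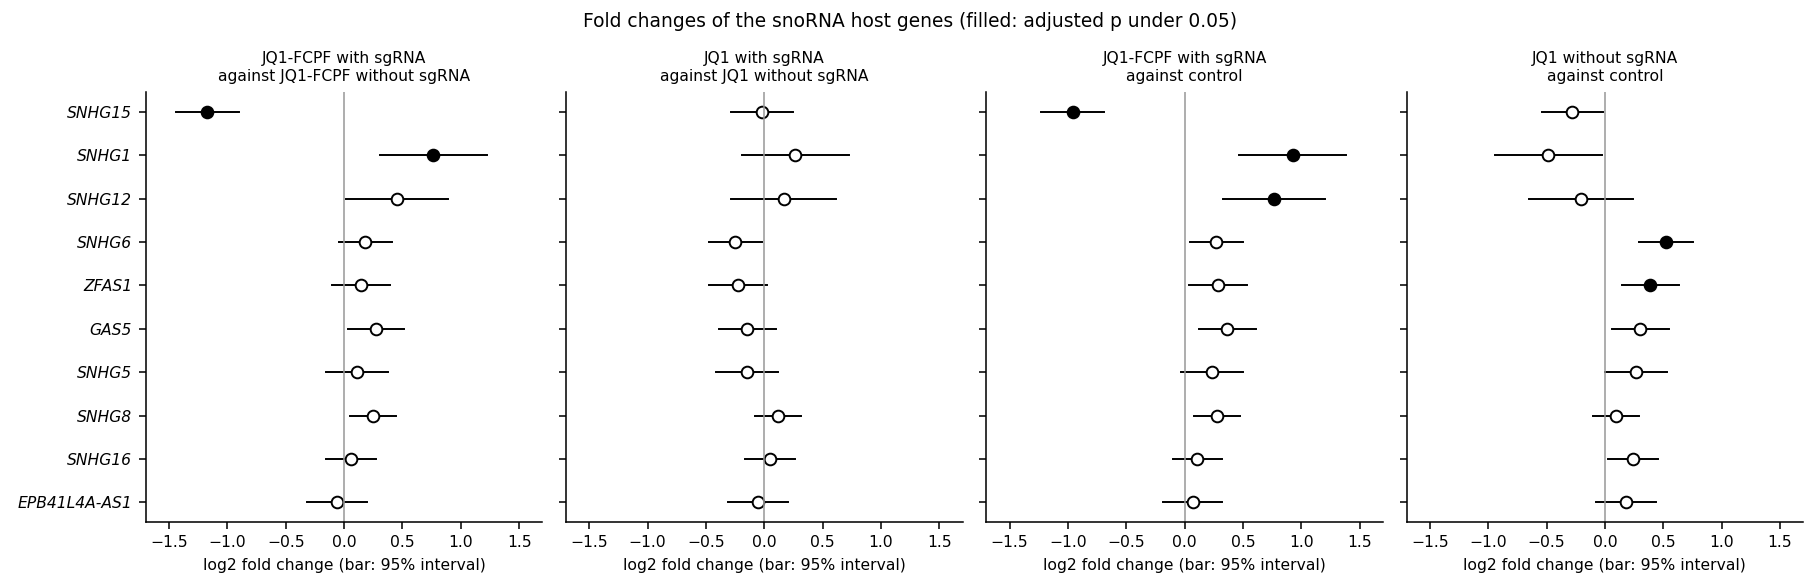
Log2 fold changes (points) with 95% intervals (bars) of the 10 members in 4 comparisons, filled where the adjusted p was under 0.05. SNHG15 is the only member called lower with sgRNA under JQ1-FCPF (-1.17), and under JQ1 its interval runs from -0.28 to 0.24.

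Under JQ1 none of the 10 members were called with against without sgRNA by edgeR or by DESeq2. Only 2 genes of all tested were called there (0.0129%), and 1264 had an unadjusted p under 0.05, 1 of them a member (SNHG6). SNHG15 held 39.1, 36.9 and 30.8 CPM in JQ1 with sgRNA, against 39.2, 30.7 and 38.4 CPM in JQ1 without sgRNA, which overlap (log2 fold change -0.02, 95% interval -0.28 to 0.24). SNHG1 held 270, 205 and 184 CPM with sgRNA, against 176, 162 and 210 CPM without sgRNA (0.26, interval -0.19 to 0.72). SNHG6, at 139, 176 and 143 CPM with sgRNA, lay below its 186, 177 and 183 CPM without sgRNA, and it was the 1 member of 10 whose groups did not overlap (15.4% of all genes). That difference was -0.25 on the log2 scale (adjusted p = 0.603).

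An interaction term tested whether the sgRNA effect depended on the compound. It was called for SNHG15 alone among the members, at -1.15 ± 0.18 SE on the log2 scale (95% interval -1.53 to -0.78, edgeR adjusted p = 0.0026). Over 21 alternatives the adjusted p ran from 1.63e-07 to 0.0131, and without JQ1 with sgRNA replicate 1 the value was -1.07. Of all genes 0.786% were called, 0.593% lower and 0.193% higher. SNHG1 gave 0.50 (adjusted p = 0.481) and SNHG12 0.29 (0.696), and these became 0.81 (0.0483) for SNHG1 without JQ1-FCPF with sgRNA replicate 2, and 0.99 and 0.70 without both libraries that stood apart. ZFAS1, GAS5 and SNHG6 had values of 0.37 to 0.43 that were not called.

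Set against the control, JQ1-FCPF with sgRNA gave SNHG1 and SNHG12 as higher and SNHG15 as lower, 3 of 10 members beside 7.21% of all genes (2.42% higher, 4.79% lower). SNHG15 held 23.5, 22.6 and 21.6 CPM in JQ1-FCPF with sgRNA, against 49.7, 40.2 and 41.6 CPM in the control, and was 1.95-fold lower (log2 fold change -0.96 ± 0.13 SE, edgeR adjusted p = 4.95e-05). SNHG1 averaged 485 ± 203 CPM in JQ1-FCPF with sgRNA and 256 ± 30.3 CPM in the control (SD, n = 3 each), a 1.90-fold difference (adjusted p = 0.0120). Without replicate 2 of JQ1-FCPF with sgRNA it was 2.36-fold (1.52e-05), and the call was lost without replicate 1 of that group (0.0746) or control replicate 2 (0.062) or 3 (0.0687). SNHG12 averaged 84.0 ± 33.5 CPM, against 49.4 ± 8.51 CPM in the control, a 1.701-fold difference (0.0304, with 5.74e-08 to 0.148 over the alternatives). It was 2.10-fold without replicate 2, and the call was lost without replicate 1 or 3 of JQ1-FCPF with sgRNA (0.148 and 0.0888) or control replicate 2 or 3 (0.124 and 0.133).

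The other members were not called against the control. GAS5 averaged 348 ± 44.9 CPM in JQ1-FCPF with sgRNA and 270 ± 21.1 CPM in the control, without overlap (log2 fold change 0.36, adjusted p = 0.0628). SNHG8, which carries SNORA24, averaged 106 ± 7.95 CPM and 87.2 ± 3.62 CPM (0.28, 0.0792). Leaving out replicate 2 of JQ1-FCPF with sgRNA gave 5 called members, with GAS5 (0.0106) and SNHG8 (0.0299) as the additions, beside 6.77% of all genes. Leaving out JQ1 with sgRNA replicate 1 also gave 5, beside 9.91% of all genes. In 4 of 10 members (GAS5, SNHG6, SNHG8 and SNHG15) the groups did not overlap, beside 25.1% of all genes.

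In JQ1-FCPF without sgRNA 0 of 10 members were called against the control. Only 1 gene of all tested was called (0.00644%), by edgeR, and 285 had an unadjusted p under 0.05, among them 0 members. DESeq2 also called 0 members. All 10 log2 fold changes were positive, from 0.03 (SNHG8) to 0.31 (SNHG12), with a median of 0.13, beside 0.002 over all genes tested. These 10 values come from the same libraries and are not independent, and the share of all genes with a positive value was not computed. In 0 of 10 were the groups apart (7.46% of all genes). SNHG15 held 43.0, 56.4 and 53.2 CPM, against 49.7, 40.2 and 41.6 CPM in the control (log2 fold change 0.21, interval -0.05 to 0.47).

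In JQ1 without sgRNA, SNHG6 and ZFAS1 rose against the control. On all libraries, neither was called by edgeR against the control in JQ1 with sgRNA (adjusted p = 0.0977 and 0.376) or JQ1-FCPF with sgRNA (0.145 and 0.160). Both were called higher there only without both libraries that stood apart, a choice made after seeing the data. The edgeR adjusted p were then 0.016 and 0.0329 in JQ1 with sgRNA, and 0.0414 and 0.00964 in JQ1-FCPF with sgRNA. In that setting 22.8% and 11.1% of all genes were called. These comparisons share the same control libraries. SNHG6, a chromosome 8 gene that carries SNORD87, held 186, 177 and 183 CPM in JQ1 without sgRNA, against 133, 139 and 108 CPM in the control. All 3 treated libraries lay above all 3 controls, by 1.44-fold (log2 fold change 0.52 ± 0.11 SE, edgeR adjusted p = 0.00572). The call was lost without control replicate 3, the lowest library (0.0531), and held in the other alternatives. ZFAS1, the antisense neighbour of ZNFX1, held 156, 141 and 148 CPM in JQ1 without sgRNA, against 114, 125 and 101 CPM in the control, also without overlap (1.31-fold, log2 fold change 0.39 ± 0.12 SE, adjusted p = 0.0361, with 0.000227 to 0.182 over the alternatives). Leaving out control replicate 1 or 3, any replicate of JQ1 without sgRNA, or JQ1-FCPF without sgRNA replicate 3 ended that call (0.0502 to 0.182).

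The 2 called members of 10 stand beside 12.3% of all genes, 6.07% higher and 6.23% lower, and the 8 members whose groups did not overlap beside 41% of all genes. SNHG1 held 176, 162 and 210 CPM in JQ1 without sgRNA, against 290, 231 and 246 CPM in the control, each library below the controls (log2 fold change -0.48, adjusted p = 0.154). That difference was called in 4 alternatives, among them the fit without JQ1-FCPF with sgRNA replicate 2 (0.0242). SNHG15 was likewise below the control in all 3 libraries (-0.28, 0.147). GAS5, SNHG5, SNHG16 and EPB41L4A-AS1 were above it in all 3 (0.18 to 0.30, not called). Leaving out JQ1-FCPF with sgRNA replicate 2, which also changes the shared estimate of the spread, gave 4 called members, beside 18.5% of all genes.

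In JQ1 with sgRNA 0 of 10 members were called against the control by edgeR, beside 14.2% of all genes (7.21% higher, 7.04% lower), and DESeq2 called SNHG16 (adjusted p = 0.0472). SNHG16, the host of SNORD1A, SNORD1B and SNORD1C, held 149, 177 and 170 CPM, against 131, 135 and 140 CPM in the control, without overlap (log2 fold change 0.29, interval 0.08 to 0.50, edgeR adjusted p = 0.0594). It was called on leaving out JQ1 with sgRNA replicate 1 (0.0238), JQ1-FCPF without sgRNA replicate 1 (0.0473), or JQ1-FCPF with sgRNA replicate 1 (0.0461) or 2 (0.029). The unadjusted test was under 0.05 for 4 of the 10, the other 3 being SNHG6, SNHG8 and SNHG15, beside 30.1% of all genes. In 3 of 10 (SNHG8, SNHG15 and SNHG16) the groups did not overlap, beside 34.5% of all genes. Without both libraries that stood apart 6 members were called, SNHG6, SNHG8, SNHG16 and ZFAS1 higher and SNHG1 and SNHG15 lower, beside 22.8% of all genes in that setting. All 4 comparisons with the control share its 3 libraries.

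The compounds were compared at the same dose and time, in 2 pairs among the 9 comparisons. With sgRNA, JQ1-FCPF gave higher SNHG1 and SNHG12 and lower SNHG15 than JQ1, 3 of 10 members beside 2.95% of all genes (1.18% higher, 1.77% lower). SNHG15 averaged 22.6 ± 0.984 CPM under JQ1-FCPF and 35.6 ± 4.27 CPM under JQ1, without overlap (1.58-fold lower, log2 fold change -0.66 ± 0.13 SE, edgeR adjusted p = 0.00803). It was the 1 member of 10 whose groups did not overlap (15.5% of all genes), and its adjusted p was 0.0541 without JQ1-FCPF with sgRNA replicate 3. SNHG1 averaged 485 ± 203 CPM, against 220 ± 44.8 CPM under JQ1 (2.21-fold, adjusted p = 0.00723). It was 2.74-fold without JQ1-FCPF with sgRNA replicate 2 and not called without replicate 1 (0.0744). SNHG12 averaged 84.0 ± 33.5 CPM, against 48.1 ± 5.91 CPM (1.75-fold, 0.0413, with 4.59e-09 to 0.300 over the alternatives). The SNHG12 call was lost without any of 9 libraries, among them replicates 1 and 3 of JQ1-FCPF with sgRNA (0.279 and 0.190), replicates 2 and 3 of JQ1 with sgRNA (0.12 each), every replicate of JQ1 without sgRNA, JQ1-FCPF without sgRNA replicate 3 and control replicate 3 (0.0531 to 0.0611). For the 7 members not called, the log2 differences lay between -0.18 (SNHG16, interval -0.39 to 0.03) and 0.21 (GAS5, interval -0.04 to 0.45).

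Without sgRNA, SNHG6 was lower and SNHG15 higher under JQ1-FCPF than under JQ1, 2 of 10 members beside 7.8% of all genes (4.11% higher, 3.69% lower). SNHG6 averaged 135 ± 10.4 CPM under JQ1-FCPF and 182 ± 4.70 CPM under JQ1 (1.35-fold lower, log2 fold change -0.44 ± 0.11 SE, edgeR adjusted p = 0.0229). SNHG15 averaged 50.8 ± 6.96 CPM under JQ1-FCPF and 36.1 ± 4.69 CPM under JQ1 (1.41-fold higher, 0.49 ± 0.13 SE, adjusted p = 0.0236). Neither pair of groups overlapped, as in 7 of 10 members and 36.2% of all genes. Both calls were lost without any replicate of JQ1 without sgRNA or replicate 2 or 3 of JQ1-FCPF without sgRNA, and that of SNHG6 also without replicate 1 of the last group (0.0529 to 0.137). SNHG1, at 235, 332 and 292 CPM under JQ1-FCPF, lay above its 176, 162 and 210 CPM under JQ1 (0.65, adjusted p = 0.0734), and SNHG12 did so by 0.52 (0.136). Leaving out JQ1-FCPF with sgRNA replicate 2, a library of neither group, gave 4 called members, with these 2 as the additions. In that setting 14.5% of all genes were called, so the gain was not particular to the members.

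Ordered by group mean, SNHG15 stood lowest in JQ1-FCPF with sgRNA (22.6 CPM), then in JQ1 with sgRNA (35.6), JQ1 without sgRNA (36.1), the control (43.9) and JQ1-FCPF without sgRNA (50.8). Of the neighbours in this order, the test separated the lowest from JQ1 with sgRNA, and none of the other pairs was called. SNHG1 stood lowest in JQ1 without sgRNA (183 CPM), then in JQ1 with sgRNA (220), the control (256), JQ1-FCPF without sgRNA (286) and, highest, JQ1-FCPF with sgRNA (485). Only the last pair of neighbours was separated there, with the dependence on single libraries given above.

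**Figure D3:**
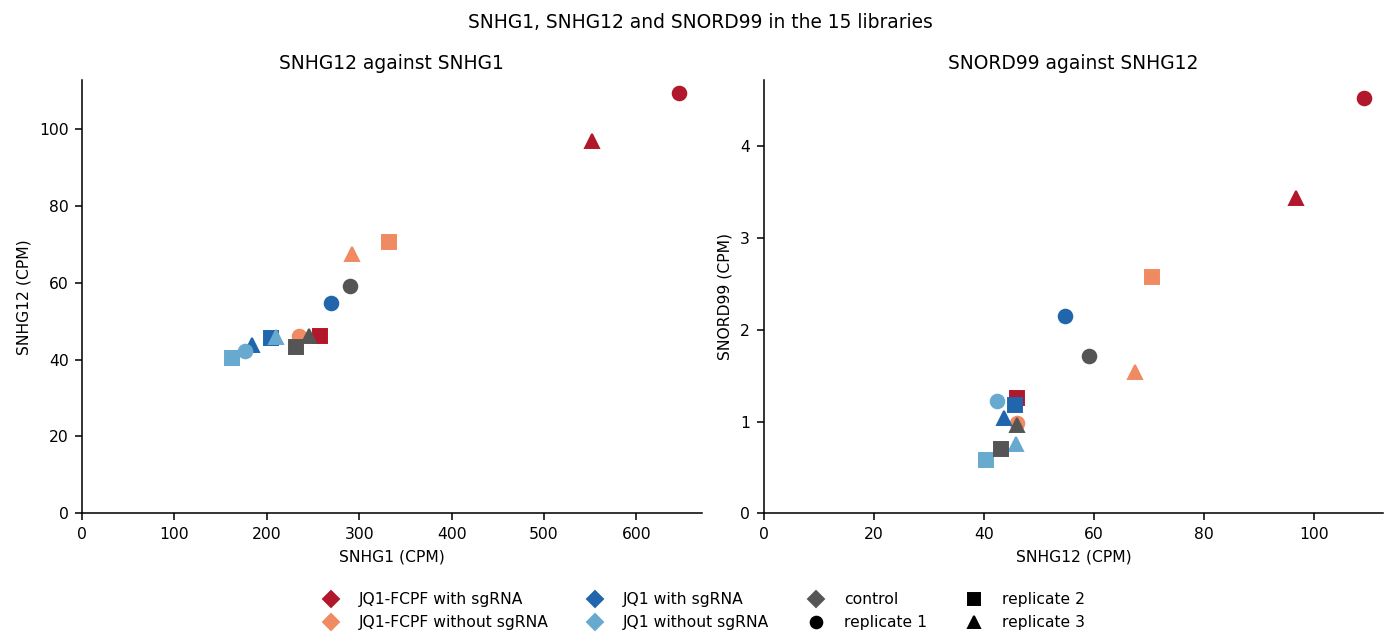
SNHG12 against SNHG1 (left) and the snoRNA SNORD99 against its host SNHG12 (right), in CPM on axes from 0, with 1 point for each of 15 libraries, coloured by group and shaped by replicate. Replicates 1 and 3 of JQ1-FCPF with sgRNA lie alone at the upper right in both, and replicate 2 (258 CPM of SNHG1, 46.0 CPM of SNHG12) lies among the other groups.

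SNHG1 and SNHG12 kept the same order of libraries at their upper end. In both, the highest were JQ1-FCPF with sgRNA replicates 1 and 3, followed by JQ1-FCPF without sgRNA replicate 2 (332 CPM of SNHG1 and 70.6 CPM of SNHG12), and both lowest values came from JQ1 without sgRNA replicate 2 (162 and 40.4 CPM). SNORD99, which lies wholly in an intron of SNHG12, had 59, 16 and 56 counts in JQ1-FCPF with sgRNA, against 27, 10 and 17 counts in the control. Again replicates 1 and 3 were above every other library, the next being 39 counts. The difference from the control was 2.71-fold (1.44 on the log2 scale, edgeR adjusted p = 0.0440), and from JQ1-FCPF without sgRNA it was 1.82-fold and not called (0.223). Without replicate 2 of JQ1-FCPF with sgRNA these were 3.49-fold (0.0042) and 2.33-fold (0.0493). Reads from an unspliced SNHG12 transcript and from the snoRNA itself cannot be told apart in these counts.

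Of 23 snoRNA genes annotated inside a member on its strand, 17 lie wholly within exonic blocks of the host and had 0 counts in all 15 libraries. The 5 that lie wholly in an intron had 841 counts in all, and SNORD30 of SNHG1, which shares part of its bases with the host's blocks, had 105. SNORA9, the snoRNA of SNHG15, is among the 17, so its level could not be read from these counts. The same search found 0 snoRNA genes inside GAS5 on its strand, so the snoRNAs of GAS5 could not be followed here. SNORD12C and SNORD12B of ZFAS1 averaged 13.5 and 12.5 counts a library, which limits what can be seen. SNORD12C had 22, 34 and 22 counts in JQ1-FCPF without sgRNA, against 6, 5 and 6 counts in JQ1 without sgRNA, and was higher under JQ1-FCPF (4.15-fold, edgeR adjusted p = 0.0388). Its host ZFAS1 was not called in that pair (log2 fold change -0.25, adjusted p = 0.190).

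**Figure D4:**
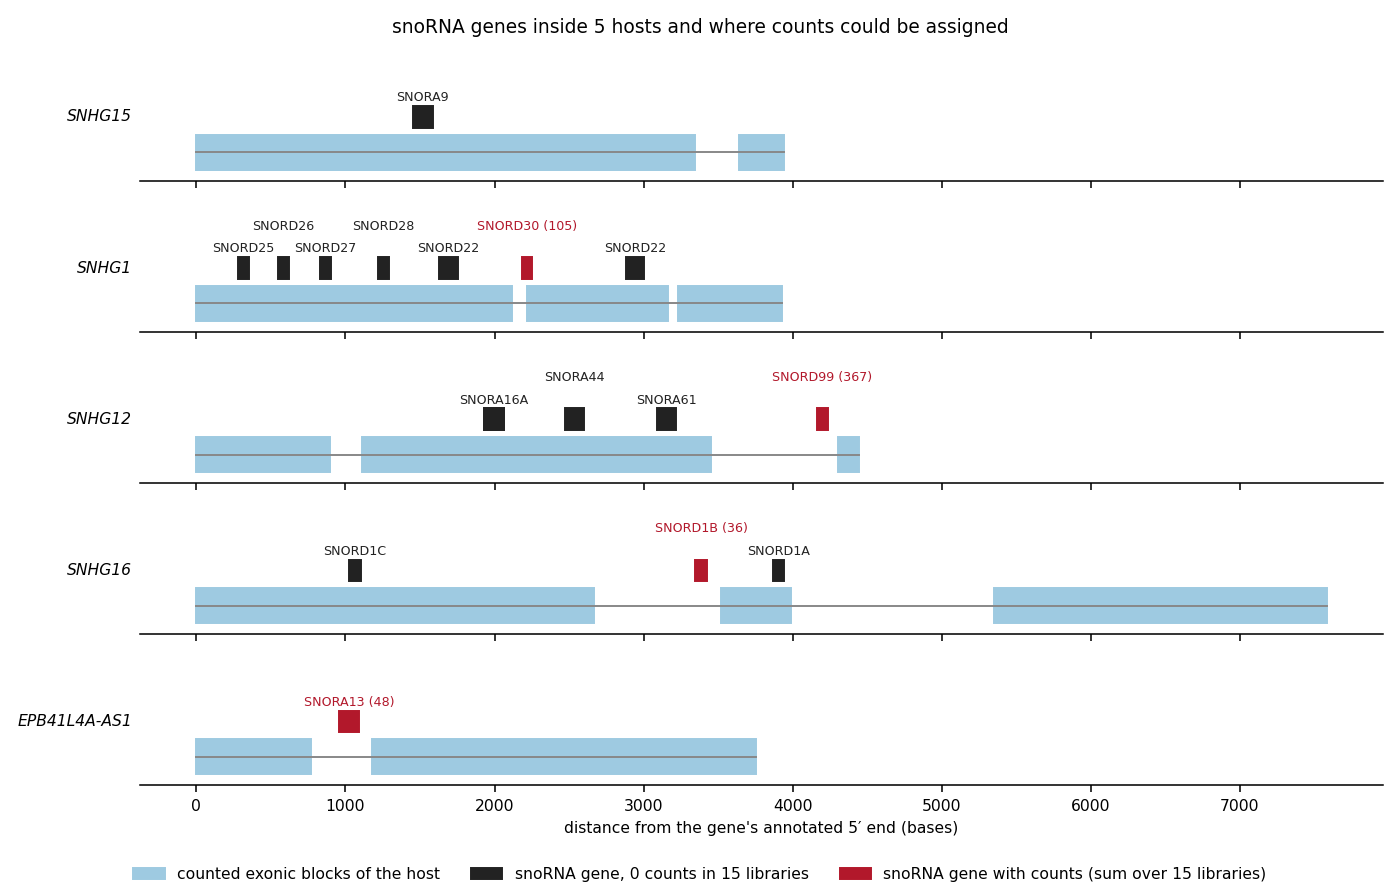
Exonic blocks in which reads were counted (blue) and snoRNA genes (black with 0 counts, red with counts, summed over 15 libraries in brackets) of 5 hosts, by distance in bases from the annotated 5′ end of the host. Every snoRNA gene wholly inside a block has 0 counts, and SNORD99 in an intron of SNHG12 has 367.

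A gene on the other strand starts within 2000 bases of 4 members, and 3 of these neighbours are protein-coding. ZNFX1, which starts 248 bases from ZFAS1 in the annotation of the files and encodes a zinc finger helicase, was 1.53-fold lower in JQ1-FCPF with sgRNA, at 21.1 ± 3.11 CPM, than in JQ1-FCPF without sgRNA, at 32.4 ± 1.99 CPM (edgeR adjusted p = 0.00371). It averaged 22.7 ± 2.42 CPM in JQ1 without sgRNA and 31.0 ± 2.29 CPM in the control (log2 fold change -0.45, adjusted p = 0.0224), where ZFAS1 rose by 0.39. SLC3A2, an amino acid transporter subunit that starts 188 bases from SNHG1, stayed between 417 and 451 CPM in group means and differed by 0.02 on the log2 scale (interval -0.19 to 0.22) with sgRNA under JQ1-FCPF. ZBTB37, 800 bases from the start of GAS5, had -0.12 (adjusted p = 0.713) in the same comparison. The neighbour of SNHG16, ENSG00000267546, was at 0.387 to 1.17 CPM in group means.

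Lists of related genes, chosen like the members with earlier results of these data known, were read in the same fits. Other noncoding snoRNA hosts (17 of 20 tested) had 1 gene called higher and 4 lower with sgRNA under JQ1-FCPF, with a median log2 fold change of -0.27, against 0.16 for the members. Called were 29.4% of this list, beside 6.25% of all genes (2.06% higher, 4.2% lower). The 4 lower ones were SNHG20, SNHG11, SNHG17 and SNHG26. SNHG20 averaged 12.0 ± 0.862 CPM with sgRNA and 21.2 ± 1.76 CPM without sgRNA (1.76-fold lower, adjusted p = 0.000676), and SNHG11 averaged 11.3 ± 0.901 CPM and 18.01 ± 1.07 CPM (1.59-fold lower, 0.000897). The 1 higher, named after its values were seen, was SNHG3, at 514 ± 113 CPM with sgRNA and 352 ± 40.02 CPM without sgRNA, whose replicate 2 with sgRNA, at 386 CPM, lay below replicates 1 and 3, at 600 and 554 CPM. Without replicate 2 SNHG3 was 1.64-fold higher (0.000293), and SNHG26 was not called (0.0628), while SNHG20, SNHG11 and SNHG17 were still called lower. SNHG20 and SNHG11 also differed in the interaction (-0.93 and -0.74, adjusted p = 0.0185 and 0.0293), where 0.786% of all genes were called.

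Against the control, the same list had 3 higher and 4 lower in JQ1-FCPF with sgRNA, 0 and 0 in JQ1-FCPF without sgRNA, 2 and 3 in JQ1 with sgRNA, and 1 and 4 in JQ1 without sgRNA. In the same order, 7.21%, 0.00644%, 14.2% and 12.3% of all genes were called in either direction. DANCR, a host that is widely studied as a long noncoding RNA, fell to 187 ± 31.2 CPM in JQ1 with sgRNA and 214 ± 22.2 CPM in JQ1 without sgRNA, against 348 ± 20.1 CPM in the control (adjusted p = 0.00772 with sgRNA and 0.0305 without sgRNA, the second named after its values were seen). In JQ1-FCPF with sgRNA it held 341, 140 and 334 CPM, so replicate 2 was again far from the other two. Without JQ1 with sgRNA replicate 1, DANCR in JQ1 with sgRNA was 1.74-fold lower than the control (0.0263). SNHG32 averaged 441 ± 11.7 CPM in JQ1 without sgRNA and 292 ± 21.1 CPM in the control (1.51-fold higher, 0.00226). Between the compounds without sgRNA, 5 of the 17 were higher and 1 lower under JQ1-FCPF, beside 4.11% and 3.69% of all genes.

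Protein-coding hosts (20 genes, all tested) had 0 higher and 2 lower with sgRNA under JQ1-FCPF, 10% of the list beside 6.25% of all genes. PPAN, a factor of large ribosomal subunit assembly, averaged 29.3 ± 7.40 CPM with sgRNA and 57.4 ± 8.48 CPM without sgRNA (1.95-fold lower, adjusted p = 0.000622), and WDR43, a factor of small subunit assembly, was 1.27-fold lower (0.0368, and 0.104 without JQ1-FCPF with sgRNA replicate 2). In JQ1 without sgRNA 5 were lower than in the control and 0 higher, among them NOP56, a core protein of box C/D particles, at 197 ± 13.5 CPM and 325 ± 3.39 CPM in the control (1.65-fold lower, 0.00639). JQ1 with sgRNA also gave 5 lower and 0 higher. These 5 of 20 stand beside 12.3% of all genes called in JQ1 without sgRNA and 14.2% in JQ1 with sgRNA. Of 18 snoRNP proteins and assembly factors, NOP56 was the 1 called in JQ1 without sgRNA, NOP56 and NAF1 were called lower in JQ1 with sgRNA, and 0 were called in either JQ1-FCPF group against the control. The same shares of all genes apply, with 7.21% for JQ1-FCPF with sgRNA and 0.00644% for JQ1-FCPF without sgRNA.

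The 2 lists of genes known for the 5'TOP start gave no calls. Of the members whose windows hold the pyrimidine run, SNHG12 and ZFAS1 were called in comparisons given above. Of 78 ribosomal protein genes 0 were called in each of the 9 comparisons, and of 15 other 5'TOP genes also 0, by edgeR. With sgRNA under JQ1-FCPF 2 of the 78 and 2 of the 15 had an unadjusted p under 0.05, beside 21.8% of all genes, and in JQ1 without sgRNA against the control 15 and 6 did, beside 28.2%. Their medians with sgRNA under JQ1-FCPF were 0.04 and 0.15 on the log2 scale, and in JQ1 without sgRNA against the control 0.21 and 0.17, beside 0.21 for the members and -0.003 for all genes. In that last comparison 75 of the 78 ribosomal protein genes had a positive value and in 25 the groups did not overlap, beside 41% of all genes. The interaction median was 0.24 for the ribosomal protein genes (76 of 78 positive) and 0.23 for the other 5'TOP genes (14 of 15). It was 0.28 for the members (8 of 10) and -0.0007 for all genes. JQ1 with sgRNA replicate 1, which stood apart, had 8.57% of its counts in ribosomal protein genes. Replicates 2 and 3 of its group had 11.8% and 11.1%. The medians of these lists were not computed without that library. Among 16 factors of nonsense-mediated decay, SMG5, SMG6 and SMG8 were lower in JQ1 without sgRNA than in the control, with a list median of -0.20. Those 3 called of 16 stand beside 12.3% of all genes. SMG8 was also lower in JQ1 with sgRNA and in JQ1-FCPF with sgRNA (16.02 ± 2.14 CPM and 24.5 ± 0.802 CPM in the control, 1.53-fold, adjusted p = 0.00844). Of these 16, 0 were called by edgeR with sgRNA under JQ1-FCPF, and 2 had an unadjusted p under 0.05, beside 21.8% of all genes.

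The members did not share one profile. Each gene's log2 CPM was centred over the 15 libraries, and the root mean square difference from the mean of the 10 centred profiles was 0.105 for GAS5, 0.109 for SNHG5, 0.109 for SNHG8, 0.132 for EPB41L4A-AS1 and 0.138 for ZFAS1. It was 0.189 for SNHG6, 0.215 for SNHG16, 0.337 for SNHG12, 0.456 for SNHG15 and 0.463 for SNHG1. The mean profile itself was highest in JQ1-FCPF with sgRNA replicates 1 and 3 (0.27 and 0.18) and lowest in control replicate 3 (-0.20), with replicate 2 of JQ1-FCPF with sgRNA at -0.12. By the same measure, among 10485 genes with a mean of at least 5 CPM, the other genes closest to the mean profile included SMS (0.083), ISYNA1 (0.084), LSM5 (0.085), NDUFAF2 (0.087), RPAIN, PLCB3 and OSGEP (0.089 each). The mean profile ran only from -0.20 to 0.27 on the log2 scale, and its SD within groups averaged 0.118. Genes that vary little therefore lie close to it whatever their pattern.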

How the data were processed

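The deposited files give raw read counts per gene for each library, with gene positions and exonic blocks, per the file headers. Aligner, genome build, annotation and use of strand: not given in the sources used here. Among the deposited gene IDs 56898 are in GENCODE release 29 (GRCh38), 96.3% with the same start and end, so positions are given in GRCh38. The 10 members and the related lists were chosen with earlier results of these data known. Groups come from the labels.

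Counts were tested in R 4.3.3 with edgeR 4.0.16 (filterByExpr with a minimum count of 10, TMM scaling, glmQLFit and glmQLFTest, 1 mean per group over all 15 libraries). Benjamini-Hochberg adjustment ran over 15517 genes, and genes with an adjusted p under 0.05 were called. The 9 comparisons include the interaction of compound and sgRNA. The script was tested on simulated data. No replicate pair agreed within sampling noise (chi-square per degree of freedom 2.96 to 48.9). The biological coefficient of variation was 11.1%.

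Each comparison was repeated under 21 alternatives: DESeq2 1.42.0 size factors, the DESeq2 test, no filter on low counts, a fit restricted to the groups compared, a block for the letter in the title, each of 15 libraries left out, and, chosen after seeing the data, both libraries that stood apart left out. Genes named beside the members were also refitted without each of these libraries and without both. Named were all members, up to 4 called genes per list with the smallest p, snoRNAs with a mean of at least 10 counts inside a member, neighbours starting within 2000 bases, MYC, and the 8 genes most like the mean profile of the members. A few items under these rules are not reported here. CPM were computed from the counts with TMM, and profiles used log2 CPM with a prior count of 2. Sequences come from RefSeq and GENCODE.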

Additional observations from a re-analysis of the deposited data

Results flagged for a closer look

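The sgRNA effect on SNHG15 differed between the compounds by a test of the difference itself. It was -1.15 on the log2 scale (JQ1-FCPF minus JQ1, 95% interval -1.53 to -0.78, edgeR adjusted p = 0.0026). Under JQ1-FCPF all 3 libraries with sgRNA lay below all 3 without sgRNA, and under JQ1 the groups overlapped. Without both libraries that stood apart the value was -1.07 (0.000337).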

How the results depend on the processing

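No member's fold change turned round where it was called. Of 273 alternative values of the 13 called ones, 216 stayed called and 57 did not, and of 1617 alternative values of the 77 others, 56 became called. The losses fall on the 8 called results of SNHG1, SNHG6, SNHG12 and ZFAS1 and on those of SNHG15 between compounds. SNHG15 kept its call in all 21 alternatives with sgRNA under JQ1-FCPF, in the interaction and against the control. The counts of called members moved as follows. For JQ1-FCPF with against without sgRNA, 2 became 1 with the DESeq2 test, 1 with only the groups compared, 5 without both libraries that stood apart, and 1 to 4 with a library left out. Over all genes, 970 became 1145 with the DESeq2 test and 351 with only the groups compared. For the interaction, 1 became 3 without both libraries and 1 to 2 with a library left out. For JQ1-FCPF with sgRNA against the control, 3 became 1 with only the groups compared, 8 without both libraries, and 1 to 5 with a library left out. Over all genes, 1119 became 543 with only the groups compared. For JQ1 with sgRNA against the control, 0 became 1 with DESeq2, 6 without both libraries, and 0 to 1 with a library left out. For JQ1 without sgRNA against the control, 2 became 7 with only the groups compared, 6 without both libraries, and 0 to 4 with a library left out. Calls over all genes moved as well, from 1908 to between 430 and 2943 with a library left out, and to as many as 4521 over all alternatives. For JQ1-FCPF against JQ1 with sgRNA, 3 became 0 with only the groups compared, 2 with DESeq2 and with the block, 4 without both libraries, and 1 to 3 with a library left out. For JQ1-FCPF against JQ1 without sgRNA, 2 became 4 with no filter, 5 with only the groups compared, 5 without both libraries, and 0 to 4 with a library left out. JQ1 with against without sgRNA and JQ1-FCPF without sgRNA against the control stayed at 0 in every alternative. Without both libraries the share of all genes called was 10.2% for the sgRNA under JQ1-FCPF, 3.25% for the interaction, 11.1%, 22.8% and 26.9% for JQ1-FCPF with sgRNA, JQ1 with sgRNA and JQ1 without sgRNA against the control, and 20.2% and 22.6% between the compounds with and without sgRNA. The cause of these shifts was not tested.

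The counts over all genes, main value first and then the range over alternatives, were 970 (351 to 1600), 2 (0 to 80), 122 (50 to 511), 1119 (542 to 1745), 1 (1 to 4), 2211 (726 to 3582), 1908 (430 to 4521), 458 (11 to 3176) and 1210 (76 to 3554). They are given for the sgRNA under JQ1-FCPF, the sgRNA under JQ1, the interaction, JQ1-FCPF with sgRNA, JQ1-FCPF without sgRNA, JQ1 with sgRNA and JQ1 without sgRNA against the control, and the compounds with and without sgRNA. With a library left out, in the same order, they were 428 to 1366, 0 to 7, 50 to 346, 542 to 1559 and 1 to 2. The rest were 726 to 3359, 430 to 2943, 68 to 2757 and 76 to 2311. Counts of called members moved beside these counts over all genes.

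No clear pairing by the title letters was seen, as 4 of 30 correlations of same-lettered deviations exceeded 0.1 (-0.238 to 0.311). With 3 libraries a group these correlations cannot exclude pairing. With the letter as a replicate block, 1 member in place of 2 was called with sgRNA under JQ1-FCPF, as SNHG1 had an adjusted p of 0.0683.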

Other observations

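Other long noncoding RNAs (13 of 14 tested) that are not grouped with snoRNA hosts gave the following values. MIR17HG, the host of the miR-17-92 microRNAs, averaged 12.5 ± 1.89 CPM in JQ1-FCPF with sgRNA and 29.7 ± 6.24 CPM in JQ1-FCPF without sgRNA (2.37-fold lower, edgeR adjusted p = 9.3e-05), and its interaction value was -1.35 on the log2 scale (0.00688), or -1.04 without both libraries that stood apart (0.00324). MALAT1, an abundant nuclear RNA, averaged 2143 ± 553 CPM in JQ1 with sgRNA and 1029 ± 307 CPM in the control (2.08-fold higher, 0.00517), and 1.84-fold higher without JQ1 with sgRNA replicate 1 (0.0171). MIR22HG, the host of miR-22, was lower than the control by 1.20 on the log2 scale in JQ1 without sgRNA (0.0176).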
